A study of Mus musculus with 6 samples.

Results

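The 7 genes described here encode subunits of the pumps that hold sodium, potassium and calcium gradients across the plasma membrane: Atp1b1, Atp1b2 and Atp1b3, the beta subunits of the Na/K-ATPase, and Atp2b1, Atp2b2, Atp2b3 and Atp2b4, the plasma membrane calcium ATPases (PMCA). They were picked by symbol from 32531 named genes. Counts came from 6 libraries of thalamus of adult, untreated control mice of the Cbln1-TRAP line NIDA030, in which Rpl10a, a protein of the large ribosomal subunit, carries EGFP. Translating ribosome affinity purification (TRAP) pulls tagged polysomes out of a homogenate with anti-EGFP antibodies. The 3 immunopurified (IP) libraries hold RNA from that pull-down, the 3 Input libraries are its background, and every animal carried the transgene. The labels call the molecule ribosome-bound RNA in both groups, and state neither how the transgene was inserted nor how many animals made a library. P-values therefore measure only the spread between these libraries, which may be technical. The comparison, IP against Input, asks which RNAs the tagged ribosomes carried relative to the tissue.

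The Na/K-ATPase exports sodium and imports potassium at the cost of ATP, and so restores the gradients that action potentials and synaptic currents run down. Its catalytic alpha subunit needs a glycosylated beta subunit to leave the endoplasmic reticulum. In rodent brain Atp1b1 is the main beta subunit of neurons, while Atp1b2, first known as the adhesion molecule on glia, is prominent in astrocytes, and Atp1b3 is more broadly expressed. PMCA pumps expel calcium from the cytosol and are switched on by calmodulin. Atp2b1 and Atp2b4 occur in many tissues, and Atp2b2 and Atp2b3 are mainly found in neurons, Atp2b2 also in the hair cells of the inner ear.

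Cbln1, which gives the line its name, had 1429 ± 67.8 CPM (counts relative to the TMM-scaled library size) in IP libraries, against 79.8 ± 9.64 CPM in Input libraries (SD, n = 3 each). Assigned counts lay between 45256700 and 57385828 in IP and between 23929070 and 47741219 in Input. Summed over 8 pan-neuronal markers, levels were 23077 to 27804 CPM in IP and 11819 to 12803 CPM in Input, and all 8 rose (Snap25 was the most abundant, at 19373 CPM in IP and 9301 CPM in Input). Of 6 markers of thalamic glutamatergic neurons 4 rose and Rora fell, with sums of 4399 to 4974 CPM in IP and 3107 to 3603 CPM in Input; the most abundant, Tcf7l2, averaged 2015 CPM in IP and 1124 CPM in Input. The sum of 8 astrocyte markers was 618 to 664 CPM in IP, against 1797 to 1923 CPM in Input, and all 8 fell; Slc1a2 alone gave 425 CPM in IP and 765 CPM in Input. All 7 oligodendrocyte markers fell too, to sums of 197 to 267 CPM in IP, against 2485 to 2829 CPM in Input (Mbp had 101 CPM in IP and 1163 CPM in Input). Markers of inhibitory neurons fell in 4 of 4 (59.7 to 78.0 CPM in IP, 499 to 730 CPM in Input, mostly Gad2). Microglial markers fell in 5 of 6 (2.94 to 6.24 CPM in IP, 34.1 to 40.4 CPM in Input, with Ctss the highest on average over both groups and in Input, and Csf1r in IP), and endothelial ones in 4 of 5 (0.371 to 1.92 CPM in IP, 7.96 to 10.6 CPM in Input, Flt1 being the most abundant, with Cldn5 at 0 counts in IP). The sum of 6 choroid plexus markers was 2.90, 49.0 and 41.2 CPM in IP replicates 1 to 3, against 9.48, 509 and 571 CPM in Input replicates 1 to 3, and 1 of 5 tested fell. Ttr, the most abundant of them on average, had 0, 40.6 and 35.1 CPM in IP replicates 1 to 3, against 2.78, 477 and 542 CPM in Input replicates 1 to 3. Aqp1 of the same list went the other way but was not called, at 1.63 CPM in IP and 0.603 CPM in Input (edgeR adjusted p = 0.141). Alignments at more than 1 place made up 43.2 to 49.7% of all lines in IP and 32.7 to 34.0% in Input, and the ribosomal RNA precursor Rn45s took 9.38 to 14.5% of assigned counts in IP and 5.21 to 5.40% in Input. What part these cell types and read classes had in the results on the pump genes was not tested.

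Promoters are shown for Atp1b1 and Atp2b2, the only members that were higher in IP in the main test, from RefSeq (GRCm38.p6). Each runs 5′ to 3′ over 250 bases before and 50 after an annotated start, with GC boxes (GGGCGG on either strand, overlaps allowed) in capitals. Atp1b1 lies on the minus strand at chr1:164458306-164458605 and Atp2b2, shown at the most upstream of 3 listed starts, on the minus strand at chr6:114042031-114042330.
Atp1b1: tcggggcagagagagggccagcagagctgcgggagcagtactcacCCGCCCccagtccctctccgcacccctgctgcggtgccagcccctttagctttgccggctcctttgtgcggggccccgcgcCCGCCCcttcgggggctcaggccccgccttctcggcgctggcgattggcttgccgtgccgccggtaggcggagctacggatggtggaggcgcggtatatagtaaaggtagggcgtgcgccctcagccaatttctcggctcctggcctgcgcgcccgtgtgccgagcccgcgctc
Atp2b2: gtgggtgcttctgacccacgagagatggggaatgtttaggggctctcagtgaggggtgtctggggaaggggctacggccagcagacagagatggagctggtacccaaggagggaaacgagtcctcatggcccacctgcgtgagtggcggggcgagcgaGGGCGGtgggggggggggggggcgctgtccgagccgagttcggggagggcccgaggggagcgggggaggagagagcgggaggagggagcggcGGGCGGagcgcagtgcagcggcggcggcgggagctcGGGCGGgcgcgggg
Bases G and C made up 71.0% of the Atp1b1 window and 72.7% of the Atp2b2 window, with 2 and 3 GC boxes, against a median of 52.7% over 32851 promoters. The windows at the other 2 starts of Atp2b2 had 58.7% with 2 GC boxes and 54.0% with 0. For 5 of the 7 members the table held 9 windows. A GC box was in 6 of them, against 35.7% of all promoters, and an E-box (CACGTG) in 2, against 7.15%. The TATA box (TATAAA) and the cAMP response element (TGACGTCA) were in 0 of 9, against 13.6% and 1.79% of all promoters, and these motifs were searched on both strands.

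Within both families some isoforms were higher and others lower in IP. Among the Na/K-ATPase beta subunits Atp1b2 fell 2.06-fold, Atp1b3 fell 1.33-fold, and Atp1b1 rose 1.27-fold, a call that not every scaling kept. Among the calcium pumps, Atp2b2 rose 1.41-fold, Atp2b3 fell 1.5-fold and Atp2b4 fell 1.65-fold, while Atp2b1 did not pass the test. In all, 2 of the 7 members (28.6%) were higher, where 23.3% of 16898 genes tested were, and 4 (57.1%) were lower, where 24.3% were. All 7 passed the filter on low counts. Calls in either direction made up 47.5% of all genes. IP and Input libraries did not overlap for 6 of the 7 members, and for 61.6% of all genes: 2 members had every IP library above every Input library, against 27.9% of all genes, and 4 had every IP library below, against 33.7%. The median log2 fold change was -0.41 over the members and -0.07 over all genes.

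**Figure D1:**
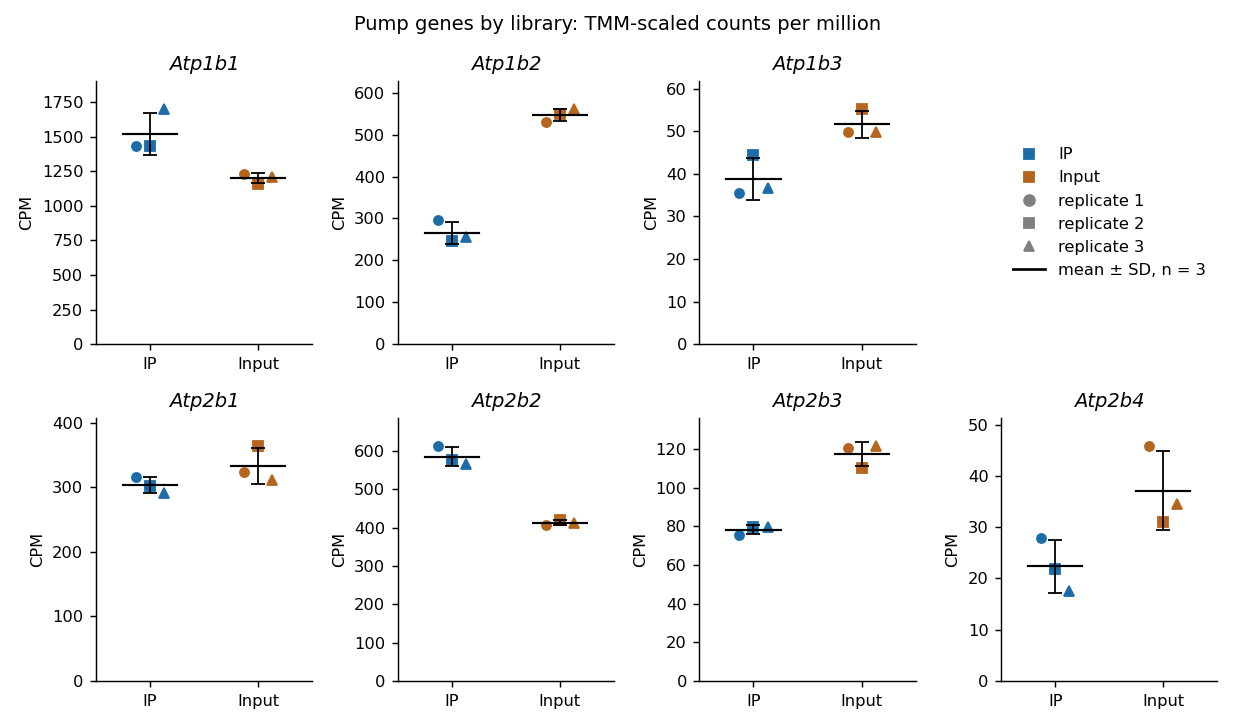
Level of each pump gene in every library, in TMM-scaled CPM (linear axes from 0), with IP left of Input, marker shape for the replicate number, and horizontal lines and bars for mean ± SD (n = 3). All 3 IP libraries lie above all 3 Input libraries for Atp1b1 and Atp2b2, below them for Atp1b2, Atp1b3, Atp2b3 and Atp2b4. For Atp2b1 the groups overlap, with IP replicate 1 between Input libraries and IP replicates 2 and 3 below them.

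Atp1b1 (ENSMUSG00000026576.12, chromosome 1, 164437109 to 164458355, minus strand, mm10) carries the beta subunit through which most neuronal Na/K-ATPase is assembled. It had 1429, 1436 and 1698 CPM in IP replicates 1 to 3, against 1231, 1159 and 1208 CPM in Input replicates 1 to 3. IP replicate 3 was the highest library, and the lowest IP value lay above the highest Input value. The log2 fold change was 0.34 (SE 0.08, 95% interval 0.16 to 0.53, edgeR adjusted p = 0.00795). This was below each of the 8 pan-neuronal markers, which ran from 0.49 (Eno2) to 1.36 (Stmn3), a difference that was not tested. The call depended on scaling: the log2 fold change was 0.17 under upper-quartile scaling (adjusted p = 0.135) and 0.11 under library totals (adjusted p = 0.382). It was also lost under a stricter filter (0.18, adjusted p = 0.108) and without both libraries of replicate number 3 (0.27, adjusted p = 0.103). The 3′ end of the gene shares 575 exonic bases with Nme7 on the opposite strand, which had at most 358 counts in any library. How reads from the shared bases were counted is not known.

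Atp1b2 (ENSMUSG00000041329.13, chromosome 11, 69599736 to 69605942, minus strand) had 296, 247 and 255 CPM in IP replicates 1 to 3, against 531, 549 and 561 CPM in Input replicates 1 to 3. The highest IP value was well under the lowest Input value, with an SD of 26.4 CPM in IP and 14.9 CPM in Input. The log2 fold change was -1.04 (SE 0.09, 95% interval -1.24 to -0.84, edgeR adjusted p = 2.38e-05), and it stayed called under all 15 alternatives, from -1.28 to -0.98. Of the 8 astrocyte markers, 7 had a larger decrease (down to -4.18 for Fgfr3), and the glutamate transporter gene Slc1a2 had a smaller one (-0.85). In these bulk libraries, less RNA from some cell types and less Atp1b2 RNA within a cell type cannot be told apart.

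Atp1b3 (ENSMUSG00000032412.8, chromosome 9, 96332655 to 96364442, minus strand) was the least abundant beta subunit, at 35.4, 44.5 and 36.6 CPM in IP replicates 1 to 3, against 49.7, 55.2 and 49.9 CPM in Input replicates 1 to 3. The groups did not overlap, but replicate 2 was highest in both. The log2 fold change was -0.41 (SE 0.13, edgeR adjusted p = 0.0232). The call was lost without IP replicate 3 (adjusted p = 0.0653), without any single Input library (0.0596, 0.113 and 0.0641 without replicates 1, 2 and 3) and without replicate number 1 or 3 (0.0829 and 0.145).

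Scaled also by gene length (CPM per kb of merged exons), Atp1b1 stood at 494 ± 49.8 in IP and 389 ± 11.9 in Input, Atp1b2 at 65.1 ± 6.46 in IP and 134 ± 3.65 in Input, and Atp1b3 at 16.3 ± 2.08 in IP and 21.6 ± 1.30 in Input (each n = 3, ± SD). The order Atp1b1, Atp1b2, Atp1b3 held in every library, with no overlap between neighbours. As a share of the family per length, Atp1b1 made up 84.2, 85.5 and 87.6% in IP replicates 1 to 3 and 72.6, 70.5 and 71.3% in Input replicates 1 to 3. The share of Atp1b2 was 13.2, 11.1 and 9.93% in IP, against 23.6, 25.2 and 24.9% in Input. Atp1b3 gave 2.85 ± 0.512% in IP and 3.97 ± 0.311% in Input. Each of the 3 shares separated the groups completely, with an exact two-sided permutation p of 0.1, the smallest that 3 against 3 libraries allow. The shares of a family are parts of a whole, so a rise of any of them lowers the rest and they are not independent results. The summed level of the family was 575 ± 46.8 CPM per kb in IP and 545 ± 9.63 in Input.

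**Figure D2:**
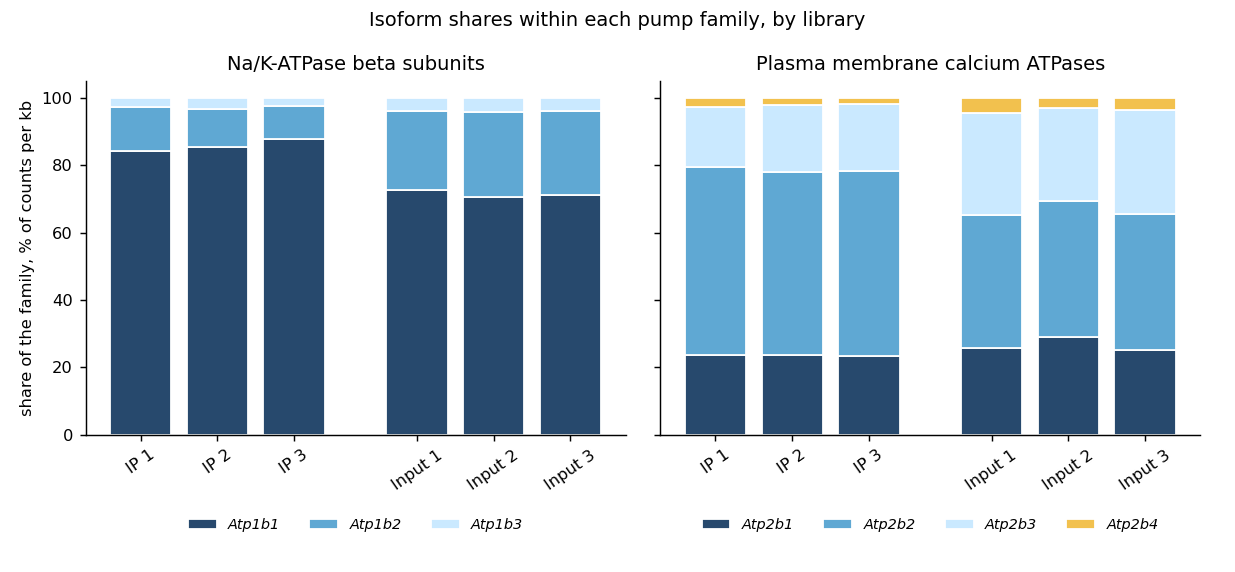
Share of each gene in its family in every library, in % of counts per kb of merged exons, for the beta subunits and the plasma membrane calcium ATPases, with the 3 IP libraries left of the 3 Input libraries. Atp1b1 fills 84.2 to 87.6% of the beta subunit bar in IP and 70.5 to 72.6% in Input, and Atp2b2 fills 54.5 to 55.7% of the calcium pump bar in IP and 39.3 to 40.3% in Input.

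Among the calcium pumps, Atp2b2 (ENSMUSG00000030302.16, chromosome 6, 113743831 to 114042613, minus strand) was the only one that rose. It encodes a fast-acting PMCA of neurons. Its level was 614, 576 and 566 CPM in IP replicates 1 to 3, against 407, 420 and 413 CPM in Input replicates 1 to 3. The lowest IP library was far above the highest Input library. The log2 fold change was 0.50 (SE 0.07, 95% interval 0.34 to 0.66, edgeR adjusted p = 4.22e-04), and it stayed called under all 15 alternatives, although its size ran from 0.26 to 0.54. Of the 8 pan-neuronal markers, 7 rose more, up to 1.36 for Stmn3, and Eno2 rose slightly less (0.49). These differences were not tested.

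Atp2b1 (ENSMUSG00000019943.10, chromosome 10, 98914406 to 99026143, plus strand), the housekeeping PMCA, had 316, 301 and 291 CPM in IP replicates 1 to 3, against 323, 364 and 311 CPM in Input replicates 1 to 3. It is the only member whose groups overlapped. The log2 fold change was -0.14 (SE 0.08, 95% interval -0.33 to 0.05, edgeR adjusted p = 0.213). It passed the threshold under upper-quartile scaling (-0.31, adjusted p = 0.0153), under library totals (-0.37, adjusted p = 0.00670) and under the stricter filter (-0.30, adjusted p = 0.0140).

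Atp2b3 (ENSMUSG00000031376.15, chromosome X, 73503086 to 73571005, plus strand) had 75.7, 79.8 and 79.4 CPM in IP replicates 1 to 3, against 120, 110 and 122 CPM in Input replicates 1 to 3. Both groups were tight and far apart. This pump, known mainly from neurons, fell, with a log2 fold change of -0.58 (SE 0.09, 95% interval -0.78 to -0.39, edgeR adjusted p = 6.32e-04), and it stayed called under all 15 alternatives (-0.82 to -0.54).

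Atp2b4 (ENSMUSG00000026463.17, chromosome 1, 133699457 to 133801041, minus strand) was the lowest of the 7, also per length, and the most variable between replicates. It had 27.8, 21.9 and 17.5 CPM in IP replicates 1 to 3, against 45.8, 31.0 and 34.6 CPM in Input replicates 1 to 3. Replicate 1 was the highest library of both groups, and the groups stood only a little apart. The log2 fold change was -0.73 (SE 0.21, 95% interval -1.19 to -0.26, edgeR adjusted p = 0.0164). The call was lost without IP replicate 3 (-0.56, adjusted p = 0.0518), without Input replicate 1 (-0.55, adjusted p = 0.0835) and without both libraries of replicate number 3 (-0.62, adjusted p = 0.105).

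Per length, Atp2b2 led the calcium pumps in every library, at 46.4 ± 2.0 CPM per kb in IP and 32.8 ± 0.514 in Input. Atp2b1 followed in IP (19.9 ± 0.818), above Atp2b3 (16.2 ± 0.470), while in Input Atp2b3 (24.4 ± 1.27) and Atp2b1 (21.9 ± 1.81) overlapped. Atp2b4 came last in both groups, at 1.83 ± 0.423 in IP and 3.03 ± 0.632 in Input. The share of Atp2b2 in the family was 55.7, 54.5 and 54.8% in IP replicates 1 to 3, against 39.3, 40.3 and 40.3% in Input replicates 1 to 3. Atp2b3 made up 18.0, 19.7 and 20.1% in IP, against 30.3, 27.7 and 31.0% in Input. The share of Atp2b1 was 23.6 ± 0.196% in IP, against 26.6 ± 2.01% in Input, and that of Atp2b4 2.16 ± 0.428% in IP, against 3.69 ± 0.768% in Input. All 4 shares separated the groups (exact two-sided permutation p = 0.1 each, the smallest possible). Here too the shares depend on each other, and the level of Atp2b1 itself overlapped between the groups. The family's summed level was 84.4 ± 2.79 CPM per kb in IP and 82.1 ± 0.718 in Input. Shares between genes depend on the length used. With the longest coding transcript in place of merged exons, a choice made after seeing the data, Atp2b2 took 51.8% in IP and 38.3% in Input. Atp2b1 then took 33.4% in IP and 38.3% in Input, and Atp2b3 13.3% in IP and 20.8% in Input. The mean lead of Atp2b2 over Atp2b1 in Input therefore rests on the merged exons, and so does the higher Input mean of Atp2b3 over Atp2b1.

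Ratios of counts between 2 members of a family, taken within a library, do not depend on scaling. They were not corrected for gene length, so a ratio itself is no measure of relative level. A fixed length shifts a ratio alike in every library and drops out of its difference between IP and Input. For the 9 pairs, 7 separated IP from Input. The pairs of a family share genes, so they are not independent of each other. They were not set against pairs of other genes, and 61.6% of all single genes tested separated the groups. The largest difference among the 9 was in Atp1b1 over Atp1b2, whose log2 count ratio was 2.27, 2.54 and 2.74 in IP replicates 1 to 3, against 1.21, 1.08 and 1.11 in Input replicates 1 to 3. The mean difference of 1.38 is a 2.61-fold higher ratio in IP, and all 3 replicate numbers showed it (1.06 to 1.63). Atp2b2 over Atp2b4 differed by 1.24 on the log2 scale and Atp2b2 over Atp2b3 by 1.08, with log2 count ratios of 2.90 ± 0.103 in IP and 1.82 ± 0.0963 in Input for the second pair. Atp1b1 over Atp1b3 differed by 0.75 and Atp2b1 over Atp2b3 by 0.45. Atp1b2 over Atp1b3 was lower in IP by a log2 difference of -0.63, and so was Atp2b1 over Atp2b2 (-0.63), whose IP libraries had an SD of 0.0125. Each of these 7 pairs had an exact two-sided permutation p of 0.1, the lowest that 3 against 3 libraries can give, or 0.129 after Benjamini-Hochberg adjustment over 9 pairs. Atp2b1 over Atp2b4 (0.60, exact p = 0.2) and Atp2b3 over Atp2b4 (0.15, exact p = 0.5) overlapped between the groups. For the second of these the log2 difference was -0.0244 without IP replicate 3.

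**Figure D3:**
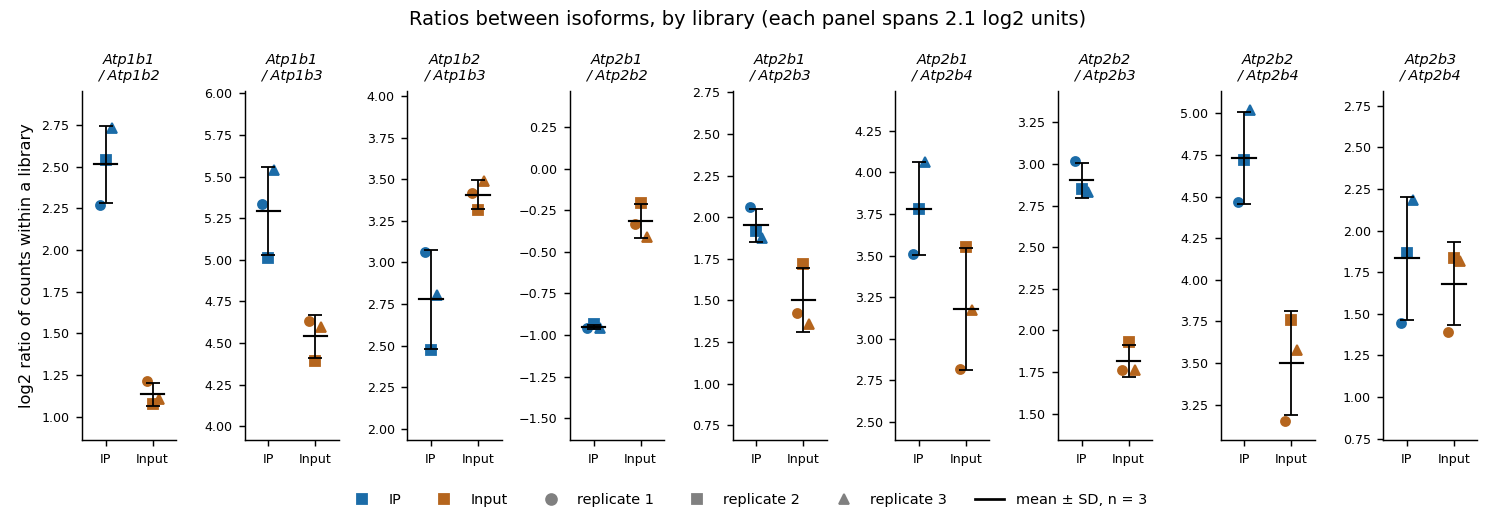
Log2 ratio of counts between each pair of isoforms within a library, IP left of Input, with marker shape for the replicate number and lines and bars for mean ± SD (n = 3). The panels have different offsets but the same span. IP lies above Input in 5 panels, below it for Atp1b2/Atp1b3 and Atp2b1/Atp2b2, and overlaps it for Atp2b1/Atp2b4 and Atp2b3/Atp2b4.

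The scaling moves all members together. The median of all genes tested shifted by -0.18 under upper-quartile scaling and by -0.24 under library totals relative to TMM, and the share of calls that were higher was 48.9% with TMM, 36.7% with upper quartiles and 31.9% with library totals. Relative to the median of all genes, Atp1b1 was higher by 0.41 under TMM, 0.41 under upper-quartile scaling and 0.42 under library totals (log2). Likewise Atp2b2 stood 0.57 above the median under these 3 scalings, and Atp1b2 0.97 below it (-0.97 in each). Since a scaling shifts all genes nearly alike, these distances stay almost fixed by construction and are no separate test of the members. Within each replicate number, which is also a sequencing lane, the log2 ratio of IP to Input was 0.22, 0.31 and 0.49 for Atp1b1, -0.84, -1.15 and -1.13 for Atp1b2 and 0.59, 0.46 and 0.45 for Atp2b2. The other 4 members were lower in IP in all 3 numbers.

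**Figure D4:**
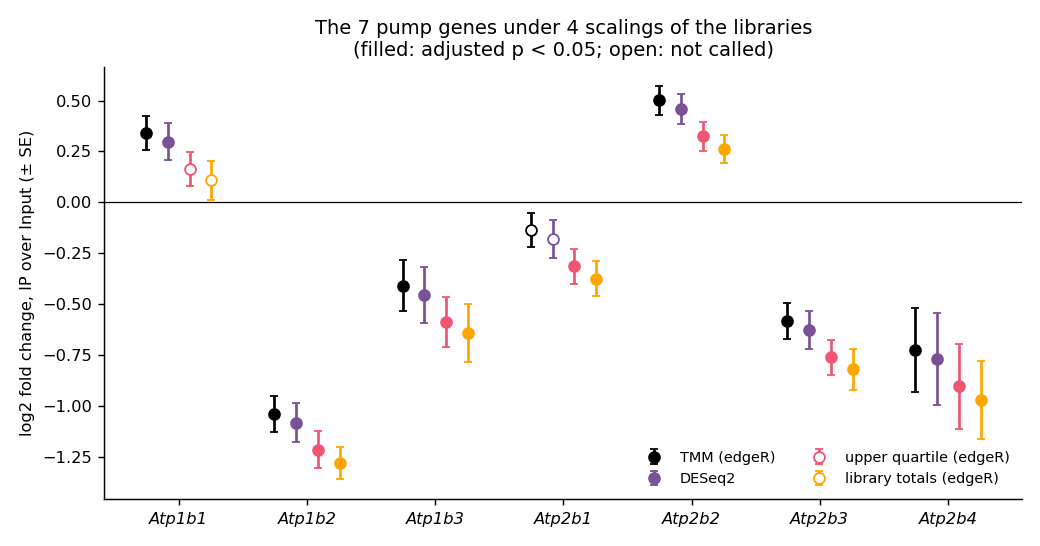
Log2 fold change of each pump gene, IP over Input, ± SE under TMM, DESeq2, upper-quartile and library-total scaling (filled points pass adjusted p 0.05, open points do not). Every gene keeps its sign, Atp1b1 loses its call under upper-quartile scaling and library totals, and Atp2b1 gains one.

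Genes that work beside these pumps were examined as 31 further genes of pump regulation and calcium transport, of which 24 were tested. In IP 8 (33.3%) rose, against 23.3% of all genes, and 5 (20.8%) fell, against 24.3%, with a median log2 fold change of 0.04.

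FXYD proteins are small membrane regulators of the Na/K-ATPase. Fxyd7, a brain member, rose to 85.0 CPM in IP, against 27.7 CPM in Input (a log2 difference of 1.62, SE 0.10, adjusted p = 4.47e-06), and Fxyd1, or phospholemman, fell to 2.26 CPM in IP, against 12.4 CPM in Input (-2.46, SE 0.24). The other 4 tested did not pass, among them Fxyd6 at 68.1 CPM in IP and 56.3 CPM in Input (adjusted p = 0.148). In the list of other beta subunit and H/K-ATPase genes, only Atp4a was tested, at 0.146 CPM in IP and 0.617 CPM in Input (adjusted p = 0.175).

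All 4 genes of PMCA partners rose. Neuroplastin (Nptn) and basigin (Bsg) are glycoproteins that bind PMCAs and are needed for their stability. Nptn had 192 CPM in IP and 128 CPM in Input (log2 fold change 0.58, SE 0.08), and Bsg 190 CPM in IP and 136 CPM in Input (0.48, SE 0.10), although Bsg was not called under library totals (0.25, adjusted p = 0.138). The calmodulin genes Calm2 (1.51, SE 0.09) and Calm3 (1.13, SE 0.10) also rose, and their counts are uncertain where processed copies in the genome share reads. Calm2 had 2034 CPM in IP and 716 CPM in Input, and Calm3 2452 CPM in IP and 1118 CPM in Input.

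The abundant pumps of internal calcium stores did not pass the test. Atp2a2, the main pump of the endoplasmic reticulum (SERCA2), had 680 CPM in IP and 642 CPM in Input (log2 fold change 0.08, 95% interval -0.11 to 0.27, adjusted p = 0.446), and the Golgi pump Atp2c1 had 64.8 CPM in IP and 64.6 CPM in Input. The muscle pump gene Atp2a1 rose to 13.6 CPM in IP, against 5.01 CPM in Input (1.44, SE 0.33), a call lost without replicate number 2 or 3 (adjusted p = 0.0521 and 0.0680). Of the potassium-dependent sodium/calcium exchangers, Slc24a3 rose to 490 CPM in IP, against 185 CPM in Input (1.41, SE 0.16). Slc24a2 rose to 883 CPM in IP, against 699 CPM in Input (0.34, SE 0.07), a call lost under upper-quartile scaling (adjusted p = 0.12), library totals (0.264), the stricter filter (0.0941) and without replicate number 3 (0.0548). The sodium/calcium exchanger Slc8a1 had 502, 265 and 320 CPM in IP replicates 1 to 3, against 269, 267 and 271 CPM in Input replicates 1 to 3, and was called only when replicate number entered as a block (adjusted p = 0.0469), without IP replicate 2 (0.0130) or without replicate number 2 (0.0498). It was named after its values were seen.

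The other 4 of the 5 related genes that fell averaged under 5 CPM and are named only to complete the count: Atp2a3, Slc8b1, Slc24a4 and Pln. Pln, the SERCA inhibitor phospholamban, had 0 counts in IP and 107 in Input, at least 38.0-fold lower if the 3 IP libraries together are set at 3 counts. In the fit blocked by replicate number, Atp2a3 (adjusted p = 0.0559) and Slc8b1 (adjusted p = 0.0702) were not called. Leaving out libraries also ended calls: that of Atp2a3 without Input library 1 or 2 and without number 2 or 3 (adjusted p between 0.0555 and 0.0806), that of Slc8b1 without Input library 2 or 3 and without number 2 or 3 (between 0.0685 and 0.101), and that of Slc24a4 without replicate number 2 (0.0673).

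**Figure D5:**
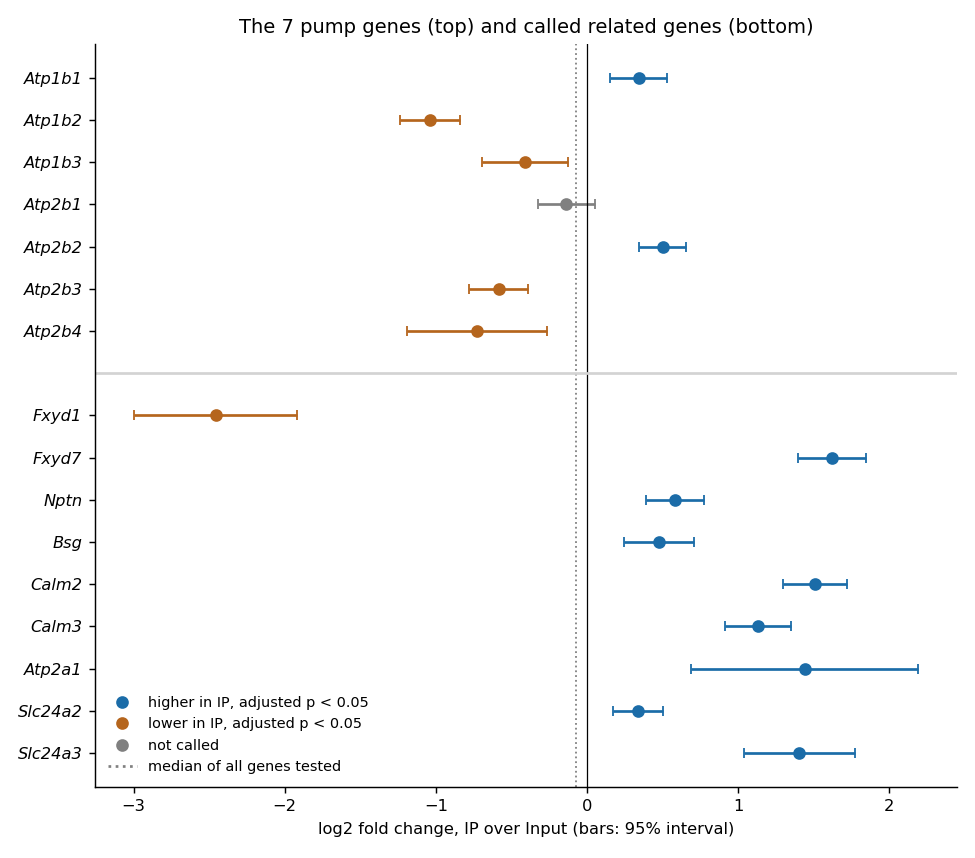
Log2 fold change, IP over Input, with 95% intervals, for the 7 pump genes (top) and the 9 related genes that were called and averaged at least 5 CPM (bottom); the dotted line is the median of all genes tested. Of the related genes shown, 8 lie above 0, and Fxyd1 lies below -2.

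Profiles over the 6 libraries were compared by the Euclidean distance between log2(CPM + 0.5) values, each gene centred on its mean, among genes of at least 5 CPM. Nearest to Atp1b1 were Kcnab1 (distance 0.0687) and E2f6 (0.0778), and to Atp1b2 Abhd5 (0.112) and Rbm5 (0.121). Nearest to Atp1b3 were AK015544 (0.0866) and Sfswap (0.131). For the calcium pumps they were Arl2bp (0.0982) and Srsf6 (0.105) for Atp2b1, Dvl3 (0.0520) and Zfr (0.0688) for Atp2b2, Ercc6l2 (0.0850) and Ubr4 (0.0895) for Atp2b3, and Rab26os (0.218) and Cpne5 (0.275) for Atp2b4. The 6 libraries form 2 groups, so genes of like difference between IP and Input score as near.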

How the data were processed

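RNA-seq read counts per gene were deposited for 3 IP and 3 Input libraries. Per the submitters' processing notes, the authors aligned reads with STAR 2.0.0e to mm10 and made the counts with HTSeq. The annotation and strand setting are not given in the sources used here. Whether reads from overlapping genes on opposite strands were told apart is therefore unknown. Lines tied to no gene made up 53.2 to 59.8% of all lines in IP and 53.7 to 55.4% in Input, and were left out.

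Groups and replicate numbers came from the titles, and each number is also 1 sequencing lane (1, 5 and 6). That shared lane is the basis for the fit with the number as a block; deviations of same-numbered libraries from their group means correlated at 0.16, 0.05 and 0.04 over 10788 genes, and those of differently numbered libraries at -0.10 to 0.07, so that the counts themselves do not tell numbers 2 and 3 apart. Replicates differed beyond sampling noise (chi-square per degree of freedom at least 11.8). IP was compared with Input in R 4.3.3 by edgeR 4.0.16 (robust quasi-likelihood test, TMM scaling, filterByExpr with a minimum count of 10, Benjamini-Hochberg threshold 0.05 over 16898 genes); adjusted p-values are from this test unless named otherwise. The test was first tried on simulated counts. DESeq2 1.42.0 served as an alternative. Ratios and shares were tested by exact permutation (scipy 1.17.1). Exon lengths and positions are from GENCODE M21 on the same build. The members and lists were chosen with earlier results of these data known. Named are all members, called related genes of at least 5 CPM (for a list with none, its most abundant gene), the most abundant marker of each list and the 2 nearest profiles of each member. Outside that rule, Fxyd6, Atp2a2, Atp2c1, the related genes under 5 CPM that fell, Slc8a1, Rora, Eno2, Stmn3, Fgfr3, Csf1r, Cldn5 and Aqp1 were named after their values were seen. The names given to the deposited counts point to the parafascicular nucleus of the thalamus, while the labels say only thalamus. Some genes of the related and marker lists are not reported here.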

Additional observations from a re-analysis of the deposited data

How the results depend on the processing

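Of 105 alternative values of the members' log2 fold changes, 89 kept their direction and their side of the threshold, 16 crossed it and 0 changed sign. Atp1b1 was no longer called under upper-quartile scaling (0.17), library totals (0.11) and a filter of at least 1 CPM in all 6 libraries (0.18), and Atp2b1 became called there (-0.31, -0.37 and -0.30). Leaving out 1 library or 1 replicate number gave 0.27 to 0.41 for Atp1b1, -0.51 to -0.34 for Atp1b3 and -0.90 to -0.55 for Atp2b4, each with losses of the call. With the replicate number as a block, no member's call changed (Atp1b1 0.34, Atp1b3 -0.42, Atp2b4 -0.74), and outside the members only Slc8a1, Atp2a3 and Slc8b1 changed side among the related genes. Library totals called 2458 genes higher, against 3930 under TMM, and the stricter filter left 1 related gene lower, against 5, since it tests fewer genes of low level. With the block 3 related genes were lower, and 3 to 7 when libraries were left out.

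All 56 alternative values of the shares, and 71 of 72 of the ratios, kept their direction; Atp2b3 over Atp2b4 ran from -0.0244 to 0.35 when 1 library was left out. Related genes that were not called changed sign: Atp2c1 with DESeq2 (-0.0393), upper-quartile scaling (-0.17), the stricter filter (-0.16) and library totals (-0.23), and from -0.0199 to 0.0432 with libraries left out; Atp2a2 in the same settings of edgeR (-0.0934, -0.0825 and -0.16); and Fxyd5 with libraries left out (-1.20 to 0.13). Where no alternative's construction shows the cause, the cause was not tested. With 3 libraries a group, the exact tests of shares and ratios cannot go below 0.1, and the sign-flip test over replicate numbers not below 0.25. The number of animals behind the libraries is unknown.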
